A study of Mus musculus with 8 samples.

Results

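The common gamma chain family is a group of cytokine receptors on lymphocytes and myeloid cells that share 1 receptor chain. The 10 genes described here, of 24411 in the count table, are the shared chain Il2rg, the private receptor chains Il2ra, Il2rb, Il4ra, Il7r, Il15ra and Il21r, the cytokines Il7 and Il15, and the kinase Jak3. They were taken by symbol, and all 10 were found. The family was chosen on its measured difference between caIKK2EC and Control libraries, so the values of its genes in that contrast are a description and support nothing.

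The samples were whole aortas of 8 mice without apolipoprotein E (ApoE(-/-)), a background on which atherosclerotic plaques form. All 8 carried the transgene caIKK2(+/+), a constitutively active form of the NF-κB-activating kinase IKK2, together with EGFP, behind a floxed STOP cassette. The 5 caIKK2EC mice also carried 1 copy of BMX-CreERT2, a tamoxifen-inducible Cre that the labels describe as specific to arterial endothelium, and the 3 Control mice were littermates without Cre. Both groups received tamoxifen (1 mg per 20 g body weight, intraperitoneally on 5 consecutive days) and a Western-type diet with 2070 mg/kg cholesterol for 12 weeks. The series had an early and a late activation scheme, and the labels do not tie these mice to either. Mice were 18 weeks old, or 19 weeks for Control 3 and caIKK2EC 2, 4 and 5, and all were female except Control 3. Each library came from 1 aorta and held 23461655 to 30808502 counts. The deposited column names carry a number, 7 or 8, which is read here as the sequencing lane, though no label names it so. On that reading lane 7 held the 3 Controls and caIKK2EC 1, and lane 8 held caIKK2EC 2 to 5. Lane and genotype thus cannot be told apart for those 4 libraries.

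The shared chain, the product of Il2rg, pairs with private chains to form the receptors for IL-2, IL-4, IL-7, IL-9, IL-15 and IL-21. It binds the kinase JAK3, while the private chain binds JAK1, and the pair phosphorylates STAT factors, mainly STAT5 for IL-2, IL-7 and IL-15, STAT6 for IL-4 and STAT3 for IL-21. The family is best known for the growth and survival of T, B and NK cells, and IL-4 also acts on macrophages. In bulk tissue, a different number of cells of a type and a different amount of RNA per cell cannot be told apart.

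RefSeq promoter windows on GRCm38.p6 were matched for 7 of the 10 genes, and Il2rb, Il7 and Il15 had no entry. The windows below show the shared chain and the 3 private chains in which the sequence or the level bears on the comparison, from 250 bases before the RefSeq start to 30 after it, on the strand of the gene. They cover chrX:101268226-101268505 (minus strand), chr7:125552021-125552300 (plus), chr15:9529847-9530126 (minus) and chr2:11642542-11642821 (plus). Capitals mark letters matched by the consensus motif of NF-κB, the factor that IKK2 activates, or by the STAT-binding GAS motif TTCNNNGAA, each searched on both strands.
Il2rg: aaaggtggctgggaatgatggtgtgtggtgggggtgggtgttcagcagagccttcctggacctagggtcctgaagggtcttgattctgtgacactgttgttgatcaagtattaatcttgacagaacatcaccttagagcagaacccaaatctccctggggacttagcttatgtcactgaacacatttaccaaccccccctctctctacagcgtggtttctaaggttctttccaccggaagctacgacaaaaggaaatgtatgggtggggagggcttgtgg
Il4ra: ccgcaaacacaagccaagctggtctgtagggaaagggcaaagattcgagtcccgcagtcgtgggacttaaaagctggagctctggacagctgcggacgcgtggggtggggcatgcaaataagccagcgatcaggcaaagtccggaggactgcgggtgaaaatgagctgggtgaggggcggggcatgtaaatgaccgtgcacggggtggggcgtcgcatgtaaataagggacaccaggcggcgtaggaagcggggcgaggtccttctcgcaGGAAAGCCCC
Il7r: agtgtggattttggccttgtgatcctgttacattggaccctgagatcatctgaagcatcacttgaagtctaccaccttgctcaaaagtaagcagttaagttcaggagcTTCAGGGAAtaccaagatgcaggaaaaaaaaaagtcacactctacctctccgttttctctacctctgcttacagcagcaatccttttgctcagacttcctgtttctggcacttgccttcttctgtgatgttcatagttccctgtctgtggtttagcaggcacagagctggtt
Il2ra: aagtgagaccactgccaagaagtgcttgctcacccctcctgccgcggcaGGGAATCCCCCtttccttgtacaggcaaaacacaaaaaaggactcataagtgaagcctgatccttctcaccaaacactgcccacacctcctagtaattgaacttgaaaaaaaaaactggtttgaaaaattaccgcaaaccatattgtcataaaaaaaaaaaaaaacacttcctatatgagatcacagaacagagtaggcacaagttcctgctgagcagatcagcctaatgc
The Il2ra window held overlapping NF-κB matches that began at positions -201 and -200 (the first transcribed base is position 1). Il4ra held 1 NF-κB match, which began at position 21. Il7r held a GAS match that began at position -142. These letters were not found in the window of Il2rg, nor in those of Il21r, Jak3 and Il15ra, which has 2 windows. Of 32851 RefSeq promoter windows with 250 bases before and 50 after the start, 4.51% held the NF-κB motif and 8.3% the GAS motif.

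The shared chain had the largest difference of the family. Il2rg (chromosome X, 101264378 to 101268255, minus strand, GRCm38) was at 47.9, 37.9 and 28.2 CPM (reads of a gene per fixed number of reads, scaled with TMM factors) in Control 1 to 3. In caIKK2EC 1 to 5 it was at 90.4, 72.3, 82.7, 92.9 and 70.5 CPM. All 5 caIKK2EC libraries lay above all 3 Controls, and the lowest of them was caIKK2EC 5. Control libraries averaged 38.0 ± 9.86 CPM (SD, n = 3), caIKK2EC libraries averaged 81.8 ± 10.2 CPM (SD, n = 5), and the difference was 2.15-fold (log2 1.10, SE 0.18). The log2 difference was 1.28 when caIKK2EC 1 alone was set against the Controls of its own lane and 0.93 without Control 3. GENCODE places 728 of the 2387 exon bases of Il2rg also in Gm20489, a gene on the same strand that the count table does not list.

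Il4ra and Il7r were the most abundant private chains. Il4ra (chromosome 7, 125552120 to 125579474, plus strand), which binds IL-4 and also serves in the IL-13 receptor, was at 114, 174 and 104 CPM in Control 1 to 3. The 5 caIKK2EC libraries held 200.4, 229.7, 237.7, 209.2 and 244.6 CPM. The groups did not overlap, and Control 2 was the Control nearest to them. The Control mean was 130.5 ± 37.8 CPM (SD, n = 3) and the caIKK2EC mean 224 ± 18.8 CPM (SD, n = 5), a fold of 1.72 (log2 0.78, SE 0.18). Within lane 7 the log2 difference was 0.66, and it was 0.64 without Control 3 and 1.06 without Control 2. Of the 6002 exon bases of Il4ra, 571 are shared with Gm44876, a gene on the opposite strand that is not among the counted genes.

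Il7r (chromosome 15, 9505788 to 9530176, minus strand) encodes the IL-7 receptor chain that T cells, innate lymphoid cells and some myeloid cells carry. It was at 79.8, 109 and 61.9 CPM in Control 1 to 3 and at 141, 88.3, 190, 161 and 143 CPM in caIKK2EC 1 to 5. The groups overlapped, because caIKK2EC 2 lay below Control 2, and the other caIKK2EC libraries lay above every Control. The fold was 1.73 (log2 0.79, SE 0.25), with 0.80 within lane 7 and 0.62 without Control 3.

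Il21r (chromosome 7, 125603429 to 125633570, plus strand), the private chain for IL-21, lies downstream of Il4ra on the same strand. Controls 1 to 3 held 12.6, 10.1 and 5.41 CPM, and caIKK2EC 1 to 5 held 11.2, 14.4, 16.1, 18.2 and 21.6 CPM. Only caIKK2EC 1 fell inside the Control range. The log2 difference of 0.80 (SE 0.29, 1.74-fold) was 0.35 within lane 7 and 0.53 without Control 3. The difference of Il21r was thus smaller in the only comparison that a single lane allows, and those of Il2rg and Il7r were not.

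The 2 chains that form the high-affinity IL-2 receptor with Il2rg were scarce. Il2ra (chromosome 2, 11642807 to 11693193, plus strand), the alpha chain known as CD25 that marks activated and regulatory T cells, was at 3.44, 1.66 and 2.20 CPM in Control 1 to 3. In caIKK2EC 1 to 5 it was at 2.06, 2.06, 1.96, 7.12 and 4.14 CPM. The first 3 caIKK2EC libraries lay within the Control range, and caIKK2EC 4 had the highest value, so the log2 difference of 0.51 had an SE of 0.49 and was 0.09 without that library. Il2rb (chromosome 15, 78479256 to 78495271, minus strand), the beta chain shared by the IL-2 and IL-15 receptors, was at 2.89, 2.62 and 2.06 CPM in Control 1 to 3. The caIKK2EC libraries 1 to 5 held 1.90, 3.29, 3.37, 3.63 and 3.17 CPM, so caIKK2EC 1 was the lowest of all 8 and the other 4 lay above every Control. The log2 difference was 0.28 (SE 0.28). Within lane 7 both genes were lower in caIKK2EC 1 than the Control mean, by log2 values of -0.17 for Il2ra and -0.38 for Il2rb. These values rest on 186 reads of Il2ra and 194 of Il2rb over the 3 Controls.

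**Figure D1:**
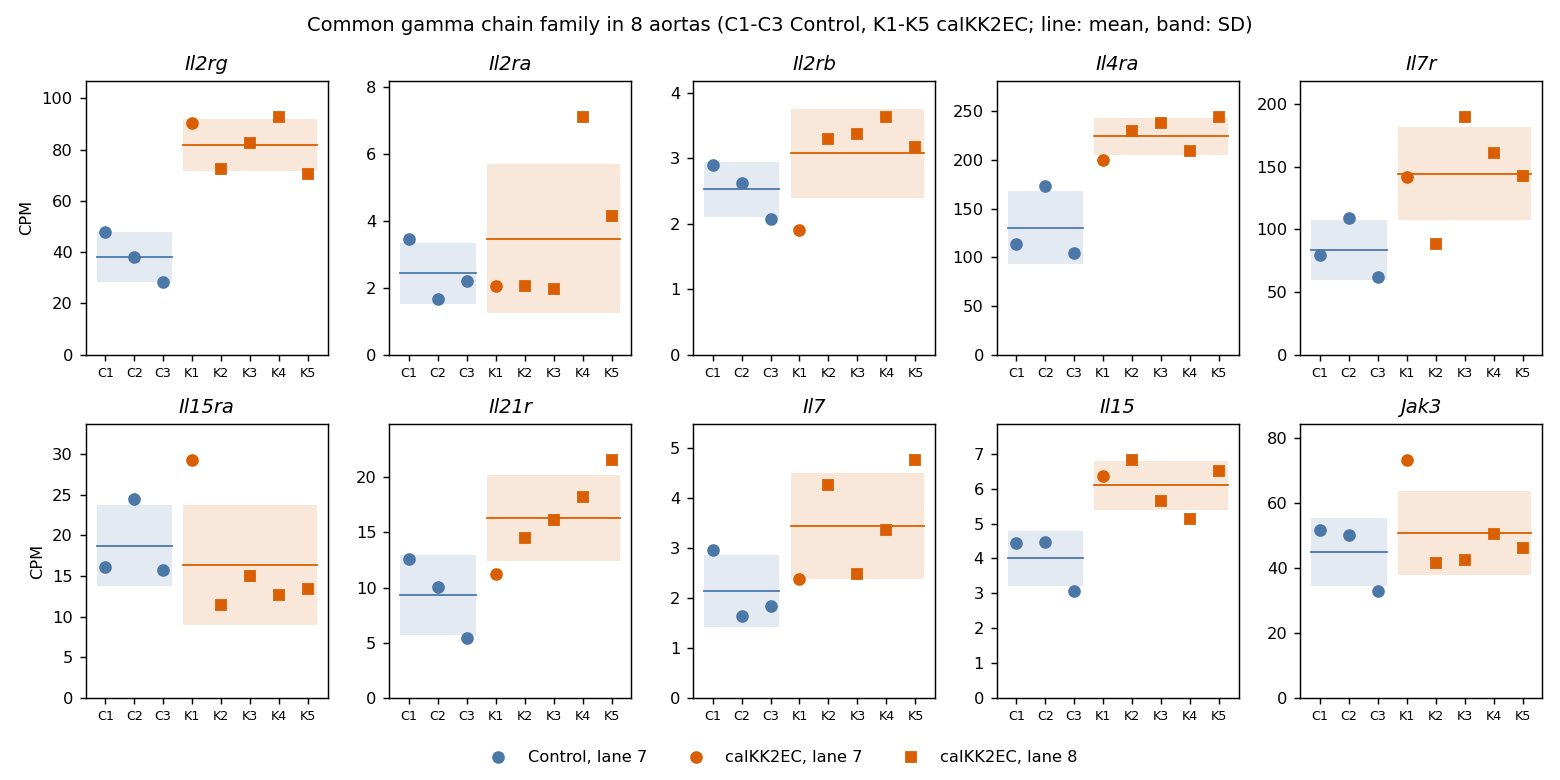
Each panel plots 1 gene of the family in CPM (linear axis from 0) in the 3 Control (C1 to C3) and 5 caIKK2EC (K1 to K5) libraries, with the group mean as a line and the SD as a band. Il2rg, Il4ra and Il15 have every caIKK2EC library above every Control, and Il15ra and Jak3 have their highest value in caIKK2EC 1.

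The 2 cytokines of the family were measured at low counts in these aortas. Il15 (chromosome 8, 82331632 to 82403222, minus strand), which sustains NK cells and memory T cells and is made by stromal and myeloid cells, was at 4.45, 4.47 and 3.07 CPM in Control 1 to 3. In caIKK2EC 1 to 5 it was at 6.37, 6.83, 5.64, 5.12 and 6.50 CPM, with no overlap between the groups. The fold was 1.52 (log2 0.60, SE 0.21), and the log2 difference was 0.68 within lane 7 and 0.45 without Control 3. Il7 (chromosome 3, 7569994 to 7613760, minus strand), a stromal survival factor for lymphocytes, was at 2.96, 1.63 and 1.83 CPM in Control 1 to 3. Its values in caIKK2EC 1 to 5 were 2.37, 4.26, 2.48, 3.35 and 4.75 CPM. Here caIKK2EC 1 and 3 lay below Control 1, and the log2 difference of 0.68 (SE 0.34) was 0.19 within lane 7. Gm16685, on the opposite strand and not among the counted genes, shares 105 of the 5664 exon bases of Il7.

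Il15ra and Jak3 did not share the pattern of Il2rg. Il15ra (chromosome 2, 11705290 to 11734317, plus strand) encodes the chain that holds IL-15 on the surface of a cell and presents it to neighbouring cells. It was at 16.1, 24.4 and 15.7 CPM in Control 1 to 3 and at 29.3, 11.4, 15.03, 12.6 and 13.4 CPM in caIKK2EC 1 to 5. The highest of all 8 libraries was caIKK2EC 1, and the other 4 caIKK2EC libraries lay below every Control. The log2 difference over all libraries was -0.20 (SE 0.31), while that within lane 7 was 0.67. Jak3 (chromosome 8, 71676296 to 71690575, plus strand), the kinase bound to the shared chain, was at 51.5, 50.1 and 32.8 CPM in Control 1 to 3 and at 73.2, 41.4, 42.5, 50.5 and 45.9 CPM in caIKK2EC 1 to 5. Its groups overlapped apart from caIKK2EC 1, the log2 difference was 0.18 (SE 0.22), and without Control 3 it was -0.002. Insl3, on the same strand, shares 404 of the 5352 exon bases of Jak3 and had 200 counts in all 8 libraries together.

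**Figure D2:**
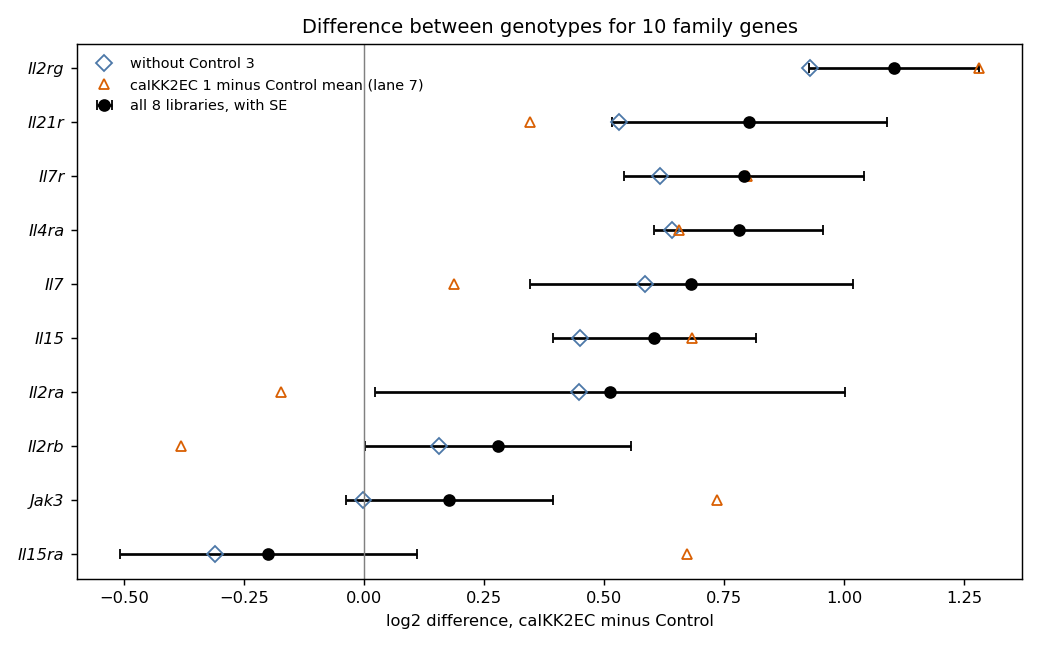
The horizontal axis gives the log2 difference, caIKK2EC minus Control, for each gene: filled points with SE bars are the fit to all 8 libraries, and open symbols are the fit without Control 3 and caIKK2EC 1 minus the Control mean in lane 7 (log2 CPM). Il2rg lies farthest right at 1.10, and Il15ra, at -0.20 over all libraries, is at 0.67 within lane 7.

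Within the caIKK2EC group, the lane 8 libraries (caIKK2EC 2 to 5) averaged a log2 CPM that differed from caIKK2EC 1 by -1.16 for Il15ra and by -0.70 for Jak3. As caIKK2EC 1 is the only caIKK2EC library of lane 7, lane and that single library cannot be told apart, and no test of lane is given. Il15ra was also the only gene of the 10 with every lane 8 library below every lane 7 library, an arrangement found in 4.41% of all genes tested. The adipocyte markers (Adipoq, Plin1, Ucp1 and Fabp4) were spread in a like way: their summed level was 2125, 2746 and 2073 CPM in Control 1 to 3, 4815 CPM in caIKK2EC 1 and 530.0 to 1726 CPM in caIKK2EC 2 to 5. The part of adipose tissue in the values of Il15ra and Jak3 was not tested.

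**Figure D3:**
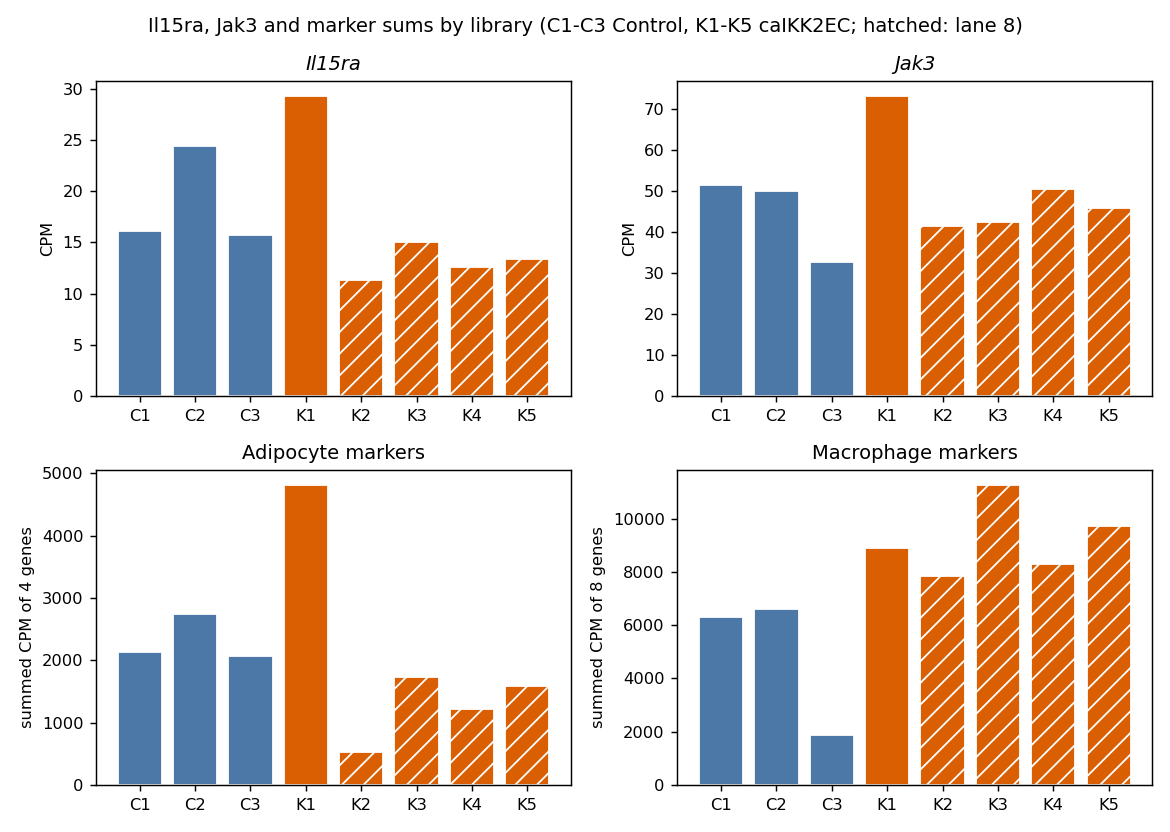
Bars give the CPM of Il15ra and Jak3 and the summed CPM of marker lists in each of the 8 libraries (C1 to C3 Control, K1 to K5 caIKK2EC, linear axes from 0, lane 8 hatched). Il15ra, Jak3 and the adipocyte sum are all highest in caIKK2EC 1, at 29.3, 73.2 and 4815 CPM.

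Every one of the 10 genes passed the low count filter. Every one had its highest library in the caIKK2EC group, which holds 5 of the 8 libraries. Control 3 was the lowest of the Controls for 8 of the 10 genes and the lowest of all 8 libraries for 6 of them. How often all genes tested have these arrangements was not counted, so nothing is read from these counts. The median over the 10 genes of log2 CPM minus the Control mean was 0.22, 0.18 and -0.32 in Control 1 to 3. It was 0.66, 0.55, 0.46, 0.69 and 0.81 in caIKK2EC 1 to 5, so each caIKK2EC library lay above each Control. The median log2 fold change was 0.64 over the 10 genes, of which 9 were above 0, and -0.02 over all genes tested, of which 47.4% were above 0. Without Control 3 the median of the 10 genes was 0.49.

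Counts of calls are given beside the background of the whole table, and nothing is read from them, since the family was chosen with this contrast known. The edgeR quasi-likelihood test with Benjamini-Hochberg adjustment called 0 of the 10 genes and 0 of 14679 genes (0%). At an unadjusted p under 0.05 it had 5 of the 10 genes higher, Il2rg, Il4ra, Il7r, Il15 and Il21r, against 9.66% of all genes tested. DESeq2 called 3 of the 10 higher, Il2rg, Il4ra and Il7r, against 4.55% of the 14340 genes to which it gave an adjusted p. For 3 of the 10, Il2rg, Il4ra and Il15, every caIKK2EC library lay above every Control, as for 7.01% of all genes tested. The authors' deposited table has the same 3 genes past 0.05 as DESeq2, with log2 fold changes of 1.11 for Il2rg, 0.78 for Il4ra and 0.79 for Il7r. When each library was left out in turn, DESeq2 called Il2rg and Il4ra all 8 times. Il7r was lost without Control 1, Control 3, caIKK2EC 3, caIKK2EC 4 or caIKK2EC 5, and Il21r was gained without Control 1 or caIKK2EC 1.

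To compare genes with each other, counts were divided by the union exon length of each gene and scaled to the same total in each library (TPM). In Control libraries the receptor chains Il4ra, Il7r and Il2rg led with 82.5 ± 25.6, 68.0 ± 20.7 and 60.4 ± 16.7 TPM (SD, n = 3). In caIKK2EC libraries the order was Il4ra, Il2rg and Il7r, with 140.5 ± 11.0, 129 ± 17.5 and 116.5 ± 29.2 TPM (SD, n = 5). These 3 chains were not separated beyond their spread: Il4ra was above Il2rg in 5 of 8 libraries and Il2rg above Il7r in 4 of 8. Jak3 followed at 31.8 ± 8.06 TPM in Control and 35.6 ± 9.26 TPM in caIKK2EC, below Il7r in 8 of 8 libraries.

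Il21r stood at 10.7 ± 4.32 TPM in Control and 18.5 ± 4.64 TPM in caIKK2EC, below Jak3 in 8 of 8 libraries. Il15ra was at 16.0 ± 4.52 and 13.8 ± 6.14 TPM, so that Il15ra led Il21r in Control and followed it in caIKK2EC, with Il21r higher in 5 of 8 libraries overall. Il15 was at 6.71 ± 1.495 TPM in Control and 10.1 ± 1.11 TPM in caIKK2EC. Its lowest library, 4.98 TPM, was above the highest of Il2rb, 3.30 TPM, and this was the only neighbouring pair in the order whose ranges did not overlap. At the bottom Il2rb was at 2.23 ± 0.420 and 2.699 ± 0.614 TPM, Il2ra at 1.61 ± 0.617 and 2.31 ± 1.56 TPM, and Il7 at 1.43 ± 0.494 and 2.29 ± 0.722 TPM (Control and caIKK2EC). Thus the shared chain was present at a mean over all 8 libraries of 103 TPM, while the IL-2 receptor alpha and beta chains had 2.05 and 2.52 TPM. With the mean transcript length in place of the exon union the first 3 places were unchanged and 7 genes changed place.

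**Figure D4:**
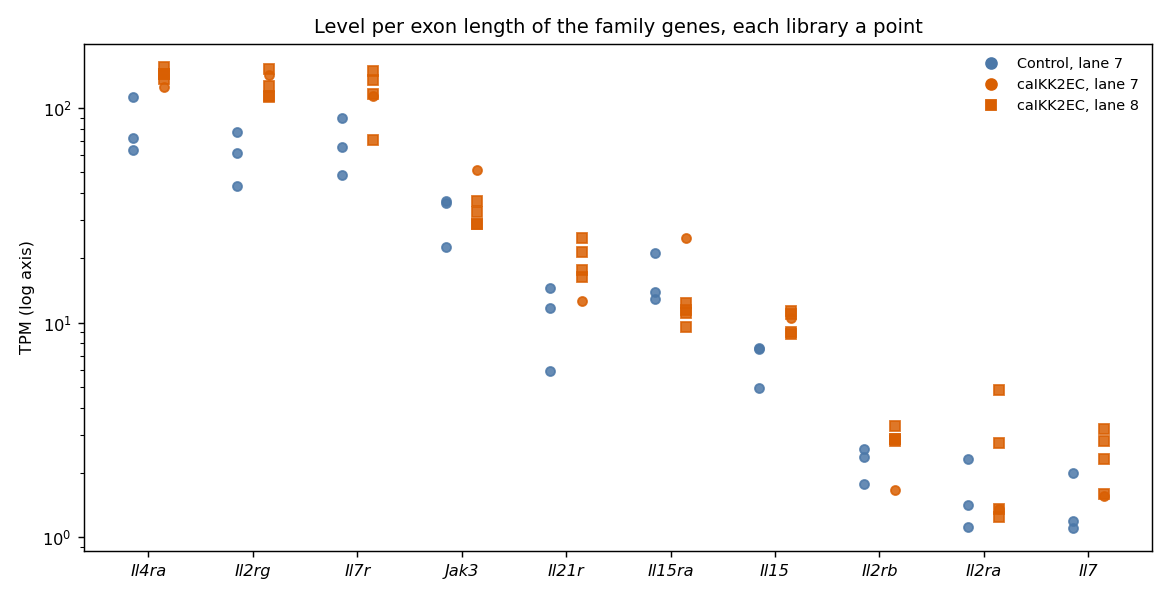
Points give the level of each family gene in each of the 8 libraries in TPM (log axis), with genes ordered by their mean over the 8 libraries and coloured by group. Il4ra, Il2rg and Il7r form the upper end with overlapping ranges, and Il2rb, Il2ra and Il7 the lower end, where all values are at or below 4.86 TPM.

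The 5 genes whose log2 CPM deviated from the group means most like Il2rg over the 8 libraries, among 12109 genes compared, were Cthrc1 (Pearson r = 0.98), G2e3 (0.97), Sdhaf2 (0.96), D17H6S56E-5 (0.96) and Apobec3 (0.96). With 8 libraries and this many genes, the highest values describe these libraries only. Of the 5, D17H6S56E-5 had a log2 fold change of 1.08, near that of Il2rg, and G2e3 one of 0.05.

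Other genes of the pathway were described from 5 lists with 32 genes, of which 26 passed the low count filter. The edgeR test called 0 of them. At an unadjusted p under 0.05 in edgeR, 5 were higher and 0 lower, against 1418 and 1097 of all 14679 genes tested. DESeq2 called 4 higher and 0 lower, against 652 and 217 of 14340 genes. The median log2 fold change of the 26 pathway genes was 0.26, with 20 of 26 above 0. No test of these lists was made. Of 6 cytokines outside the family list only Tslp, an epithelial cytokine, was kept (log2 fold change 0.39, SE 0.50, edgeR adjusted p = 0.741). Il9 and Il13 had 0 counts in all 8 libraries, and Il2, a T cell growth factor, had 8 counts in Control and 9 in caIKK2EC libraries in total. Il4 had 3 and 4 counts, and Il21 had 0 and 3.

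Receptor chains outside the family list gave DESeq2 calls for 2 of the 3 kept, both higher, against 4.55% of all genes called higher. Il13ra1, which joins Il4ra in the receptor of non-lymphoid cells for IL-4 and IL-13, was at 76.4, 58.3 and 72.9 CPM in Control 1 to 3 and at 87.1, 83.2, 106.5, 117 and 118 CPM in caIKK2EC 1 to 5. The groups did not overlap, and the log2 fold change was 0.56 (SE 0.16, edgeR adjusted p = 0.141). Crlf2, which pairs with Il7r to bind TSLP, ranged from 60.2 to 63.8 CPM in Control and from 72.3 to 86.6 CPM in caIKK2EC libraries (log2 0.31, SE 0.10, edgeR adjusted p = 0.166). The third, Il13ra2, was not called, and Il9r was not kept.

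Among 8 kinases and STAT factors DESeq2 called 0, and 1 was higher at an unadjusted p under 0.05 in edgeR. Stat3, the most abundant, differed by a log2 value of 0.24 (SE 0.11, edgeR adjusted p = 0.299), and Jak1, the partner of Jak3 on the receptor, by 0.28 (SE 0.12, edgeR adjusted p = 0.278). Of 6 feedback and survival genes DESeq2 called Socs3, an inhibitor of cytokine receptor signalling. In this list 4 genes had a log2 fold change above 0 and 2 below (median 0.037), from -0.917 for Cish (SE 0.42) to 0.777 for Socs3. Cish was at 49.3 CPM in Control 2 and at 9.25 to 19.35 CPM in all other libraries. Socs3 was at 71.9, 87.6 and 60.5 CPM in Control 1 to 3 and at 100.1, 108, 148, 131 and 141 CPM in caIKK2EC 1 to 5 (log2 0.78, SE 0.17, edgeR adjusted p = 0.109). Bcl2, the survival factor that IL-7 is known to maintain in lymphocytes, differed by a log2 value of -0.30 (SE 0.18, edgeR adjusted p = 0.417). Of 8 genes that IL-4 induces in macrophages DESeq2 called Mrc1, the mannose receptor (log2 0.58, SE 0.16, edgeR adjusted p = 0.136), while Retnla had -0.48 (SE 0.34, edgeR adjusted p = 0.495).

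Markers of the cell types that carry these receptors differed between the groups in unequal measure. The macrophage list was highest of the leukocyte lists: its 8 markers summed to 6328, 6603 and 1864 CPM in Control 1 to 3 and to 7850 to 11280 CPM in caIKK2EC libraries. All 8 had a log2 fold change above 0 (0.45 to 0.95, median 0.91), DESeq2 called Cd68, Adgre1, Csf1r, Fcgr1, C1qa and C1qb, and Lyz2 was the most abundant. Without Control 3 the log2 fold changes of the called genes were, in that order, 0.66, 0.94, 0.56, 0.76, 0.70 and 0.58. Mertk then had 0.51, and Lyz2 had 0.44 against 0.93 with all libraries. The 11 T cell markers summed to 31.1 to 79.1 CPM in Control and 72.8 to 123 CPM in caIKK2EC libraries. Cd4 was the most abundant and the only DESeq2 call, and 4 of the 11 had a log2 fold change below 0 (median 0.19). Cd4 made up much of the sum, with means of 35.8 CPM in Control and 69.7 CPM in caIKK2EC libraries. Cd3d, Cd3e and Cd3g averaged 1.58, 1.84 and 1.54 CPM in Control and 1.69, 2.11 and 2.39 CPM in caIKK2EC libraries. The 7 NK cell markers summed to 2.11 to 5.0 CPM in Control and 3.23 to 7.30 CPM in caIKK2EC libraries, and the 3 regulatory T cell markers to 5.46 to 6.30 and 4.89 to 6.87 CPM. Foxp3, Ctla4, Ncr1 and Themis each had 0 counts in at least 1 library, and no marker of any list was at 0 in all 8.

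The 6 B cell markers summed to 27.3 to 57.1 CPM in Control and 56.9 to 76.7 CPM in caIKK2EC libraries. Cd22 was the most abundant of them and the only DESeq2 call, while 4 of the 6 had a log2 fold change below 0 (median -0.672). The 7 dendritic cell markers summed to 58.1 to 74.5 and 77.4 to 164 CPM (DESeq2 called Cd209a and Ccr7). Fscn1 made up much of the sum, with means of 39.95 CPM in Control and 60.9 CPM in caIKK2EC libraries. The log2 fold changes of the 7 ran from 0.134 (Zbtb46) to 1.165 (Ccr7), with a median of 0.946. Mast cell markers summed to 36.5 to 53.0 and 39.5 to 72.7 CPM, with 0 of 6 called by DESeq2. Kit was the most abundant of them, and 3 of the 6 had a log2 fold change above 0 and 3 below (median 0.033). Of the vessel wall, endothelial markers summed to 1332 to 2651 CPM in Control and 2187 to 2815 CPM in caIKK2EC libraries, fibroblast markers to 2198 to 4174 and 3767 to 5232 CPM, and smooth muscle markers to 16940 to 33450 and 9230 to 19350 CPM. DESeq2 called Vwf (endothelium, log2 0.59) and Lum (fibroblast, log2 0.98) higher and Myh11 (smooth muscle, log2 -1.02, and -0.52 without Control 3) lower. The other markers of the first 2 lists were not called. Of the 6 endothelial markers 4 had a log2 fold change above 0 and 2 below (median 0.099). Of the 4 fibroblast markers 3 were above 0 and 1 below (median 0.227), and all 4 smooth muscle markers were below 0 (median -0.747). The defining markers of an aorta were present in every library. Control 3, the lowest Control for 8 of the 10 family genes, also had the lowest macrophage, T cell, NK cell, B cell, endothelial and fibroblast sums of all 8 libraries and the highest smooth muscle sum. Chi-square per degree of freedom between its counts and those of the other 7 libraries was 121 to 266, against 17.6 to 119.9 for all other pairs. These ranges nearly touch: the lowest was with Control 2, and 119.9 was caIKK2EC 1 with caIKK2EC 2. The measure is taken on raw counts, in which abundant genes weigh most. The part of the makeup of Control 3, or of cell type shares in general, in the family's values was not tested.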

How the data were processed

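Poly(A) RNA of 8 whole aortas was sequenced as single reads of 50 nt from a directional library, per the labels' protocols. The authors deposited raw counts per gene symbol, with a library total of 23461655 to 30808502. STAR 2.7.0e, FastQC 0.11.5 and DESeq2 1.22.2 are listed in the submitters' processing notes, with the build GRCm38 (mm10). How reads were assigned to genes, and whether by strand, is not stated in the labels, so reads of overlapping and antisense genes cannot be separated. From the authors' deposited comparison table the log2 fold changes and adjusted p-values of the genes described were copied. Its regularized log2 and normalized values were not used.

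The 10 genes and all lists were chosen with earlier results of these data known. In R 4.3.3, edgeR 4.0.16 (with limma 3.58.1) fitted the counts of the 14679 genes that passed its default group filter, after TMM normalization. Its robust quasi-likelihood test had genotype alone in the model, with Benjamini-Hochberg adjustment over those genes and a threshold of 0.05. TMM factors also scale the CPM, and log2 CPM has a prior count of 2. The second tool was DESeq2 1.42.0 on genes with a total count of at least 10. TPM was computed from the union of exons in GENCODE M21, matched for 23309 genes that hold 97.19% of the counts. The scripts were tested on simulated data.

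All 10 genes are named; each pathway list gives the up to 3 genes past the edgeR threshold with the smallest p or, as here none passed, the 2 with the highest CPM. Il13ra2, Il9r, Il4, Il9, Il13 and Il21 are named for their counts, and Cish as the lowest of its list by log2 fold change. For Il2rg the 5 most alike genes by Pearson r are named, among those with a mean log2 CPM of at least 1, and of the marker lists the most abundant and the DESeq2 calls. Alternatives were another tool, normalization, filter, covariate (sex, age or lane), a replicate block, another gene length and leaving out each library.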

Additional observations from a re-analysis of the deposited data

Results flagged for a closer look

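In the caIKK2EC group of 5 libraries, 3 of the 10 family genes had 1 library far from the other 4, and it was caIKK2EC 1 each time, the only caIKK2EC library of lane 7. The measure is the gap of an extreme library to its nearest neighbour divided by the range of the group, with a critical value of 0.71 for 5 libraries, which chance passes in about 1 of 20 groups. Over all 14679 genes tested, 9.22% passed it in this group, and for 3.9% the library apart was caIKK2EC 1. Il15ra, the presenting chain for IL-15, was highest in caIKK2EC 1 at 29.3 CPM, with a gap of 0.796 of the range. Jak3, the kinase of the shared chain, was highest there at 73.2 CPM, with 0.713. Il2rb, the beta chain of the IL-2 and IL-15 receptors, was lowest there at 1.90 CPM, with 0.733.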

How the results depend on the processing

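With DESeq2, 652 genes were higher and 217 lower in caIKK2EC, 3 of the 10 family genes were called and 4 other pathway genes. With age as a covariate edgeR called 407 higher, 254 lower, 3 family genes and 1 other pathway gene. Leaving out each library in turn gave edgeR 0 to 230 genes higher, 0 to 129 lower, 0 to 1 family genes and 0 to 1 other pathway genes, with the calls arising only without caIKK2EC 2. By DESeq2 the same gave 2 to 4 family genes. The median log2 fold change of the family was 0.49 with sex as a covariate and 0.49 to 0.74 with each library left out. The order by level per length changed place for 7 genes with the mean transcript length and for 0 to 4 genes with each library left out. Of 170 recomputed log2 fold changes of the family genes, 159 moved by less than 1 SD between replicates and 11 by more. The sign changed for Il2ra with lane as a covariate (-0.24) and with the replicate block (-0.21), for Il2rb with lane (-0.41), for Il15ra with lane (0.64) and without Control 2 (0.06), and for Jak3 with sex and without Control 3 (both -0.002). The fit with lane sets caIKK2EC 1 alone against the Controls of lane 7. With sex as a covariate, Control 3, the only male, is fitted by its own term. That fit thus repeats the one without Control 3 and is not a separate check. With the replicate block, caIKK2EC libraries without a same-numbered Control do not enter the difference. The library caIKK2EC 4, the highest for Il2ra, is 1 of these. Control 2 was the highest Control for Il15ra (24.4 CPM) and Control 3 the lowest for Jak3 (32.8 CPM), so leaving that library out moved the Control mean. Why these Controls differed from the others was not tested. With the replicate block edgeR called 0 genes higher, 0 lower, 0 family genes and 0 other pathway genes, and the family median was 0.56. The numbers were not treated as pairs: deviations of same-numbered libraries correlated at 0.33, 0.099 and 0.097, and Control 3 correlated best with caIKK2EC 4 (0.18). Depth limits Il2ra, Il2rb and Il7 most, with 164 to 194 reads each over the Controls.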

Other observations

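The library caIKK2EC 4 held the highest value of Il2ra, 7.12 CPM against 1.66 to 4.14 CPM in the other 7 libraries, and the genes that were high with it were chosen after their values were seen. Of 7 dendritic cell markers, 5 (Flt3, Zbtb46, Cd209a, Ccr7 and Fscn1) were highest of all 8 libraries in caIKK2EC 4. Clec9a was highest in Control 1 and Xcr1 in caIKK2EC 5. The share of all genes with their highest library in caIKK2EC 4 was not counted. Ccr7, the receptor that guides mature dendritic cells to lymph nodes, was at 12.9 CPM there and at 5.14 to 7.19 CPM in the other caIKK2EC libraries. Fscn1, an actin-bundling protein of mature dendritic cells, was at 97.9 CPM there and at 42.5 to 63.5 CPM in the others. Arg1, an enzyme that IL-4 induces in macrophages, was at 21.6 CPM in caIKK2EC 4 and at 2.01 to 7.73 CPM in the other 7 libraries. Kit, from the mast cell list, was at 52.75 CPM in caIKK2EC 4 and at 11.2 to 19.3 CPM in the other 7 libraries. The rest of that list, Cpa3, Mcpt4, Fcer1a, Tpsb2 and Cma1, did not have their highest value in caIKK2EC 4. Il2rg and Il2rb also had their highest library in caIKK2EC 4.

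On chromosome 2 the genes Il2ra and Il15ra lie in the same direction, with Il2ra ending at 11693193 and Il15ra starting at 11705290. Their highest libraries differed: caIKK2EC 4 for Il2ra and caIKK2EC 1 for Il15ra.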
